A study of Mus musculus with 30 samples.

Results

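The 10 genes described here encode subunits of voltage-gated calcium channels other than Cacnb3. They were taken by name from a list and found by Ensembl gene ID among the 43629 genes of the count table, with no threshold on a measured value. Earlier results of these data were known when the list was chosen. Of them, 5 encode pore subunits (Cacna1a, Cacna1c, Cacna1d, Cacna1e and Cacna1s), 2 encode alpha2delta subunits (Cacna2d1 and Cacna2d4) and 3 encode beta subunits (Cacnb1, Cacnb2 and Cacnb4). With Cacnb3 and 15 further genes they make up a channel subunit family of 26 genes.

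The study sequenced poly(A) RNA of dendritic cells grown for 6 days from the bone marrow of wild-type mice and of mice with a Cacnb3 deletion, to ask how the deletion and a pulse of ATP alter transcription. Each genotype had 5 cultures and each culture gave 3 libraries, 30 in all: one named ctrl, one named 0p5h and one named 24h. Per the study's methods, the marrow was grown with GM-CSF, WT mice were C57BL/6J and Cacnb3-/- mice were C57BL/6N, so substrain and deletion cannot be told apart. Per the labels, cells were given 500 µM ATP over 30 min, with harvest either directly afterwards or 24 h later. The treatment field reads the opposite of the names for 2 sets, with the ATP pulse entered for ctrl and vehicle for 0p5h, so the sets keep their library names (ctrl, 0p5h and 24h) and no direction is given to ATP between these 2 sets.

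A voltage-gated calcium channel is built around a pore subunit that opens when the membrane depolarizes and lets calcium into the cell. A beta subunit binds the pore from the cytoplasm, promotes its delivery to the surface and alters its gating, and an alpha2delta subunit binds from the outside and raises the amount of channel at the surface. Such channels are best known from neurons, muscle and endocrine cells, where they couple electrical activity to release, contraction and transcription. Cells that lose one beta subunit can in principle use another, which is the question that the comparison of genotypes addresses for the members.

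The targeted gene was read in every library. In libraries named ctrl, Cacnb3 stood at 1259 ± 112 CPM (SD, n = 5) in WT and 1028 ± 196 CPM in Cacnb3-/-. It stood at 1232 ± 188 and 963 ± 238 CPM at 0p5h, and at 1668 ± 366 and 973 ± 277 CPM at 24h. CPM is a gene's reads per 1e+06 reads of its library, after scaling of the totals. The lowest library still held 4307 reads of Cacnb3, 572 CPM. A count over the whole gene cannot show whether an exon is missing, so the values leave the labels unchecked, and the groups are called the libraries labelled Cacnb3-/- or WT. The difference was not called in any set with edgeR's quasi-likelihood test (log2 change -0.77 and adjusted p = 0.0518 in libraries named 24h, where the groups did not overlap, and -0.23 with adjusted p = 0.487 once a trend with GC content was removed). At 24h, 4 of 18 alternative settings gave Cacnb3 an adjusted p under 0.05, with log2 changes of -0.88 to -0.23 over all 18. In the sums per culture 1 of 16 did, with log2 changes of -0.47 to -0.17. At ctrl and at 0p5h 0 of 18 did.

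Totals ran from 8237393 to 32164225 reads, median 19556920, and 3 reads, the limit that a count of 0 allows, equal 0.0978 to 0.399 CPM. Markers of dendritic cells were present in all libraries, with 9 of 9 markers at a mean of 1 CPM or more, and summed to 21194 to 39957 CPM (median 32821) in WT and 16077 to 37542 CPM (median 23663) in Cacnb3-/-. Of macrophage markers 6 of 6 reached this mean, and they summed to 507 to 1360 CPM in WT and 459 to 1970 CPM in Cacnb3-/-. Of markers of granulocytes and their precursors 5 of 7 did, with sums of 107 to 563 CPM and 189 to 541 CPM. Which cells of the cultures supplied the reads of the members was not tested. Of markers of neurons 0 of 6 reached a mean of 1 CPM, of skeletal muscle 2 of 5 and of heart muscle 1 of 3. Libraries labelled Cacnb3-/- held a higher median share of mitochondrial reads in each set (5.23% against 1.53% in WT at ctrl, 5.13% against 1.98% at 0p5h and 10.5% against 2.55% at 24h) and higher summed megakaryocyte markers (66.3 to 233 CPM against 27.6 to 69.1 CPM over all sets, 2 of 3 markers at 1 CPM or more). Their median total was lower in libraries named ctrl (16202000 against 25364047 reads). A two-sided exact permutation test of the difference in mean totals gave p = 0.0238 there (adjusted p = 0.0714 over 3 sets). Most of the megakaryocyte sum was Pf4 (mean 73.3 CPM over 30 libraries), beside Itga2b (6.66 CPM) and Gp9 (0.333 CPM). The part of these differences in the results that follow was not tested.

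Sequences at the transcription starts are shown for the most abundant beta and pore members, for Cacnb4, whose level followed that of Cacna1d, and for Cacna1s, which was almost without reads. RefSeq promoters on GRCm38.p6, each of 250 bases before and 50 after a start, matched 8 of 10 members. Capitals mark GC boxes, the letters GGGCGG read on either strand (CCGCCC on the other), which occur in 35.7% of all 32851 promoters. The most upstream of 2 listed Cacnb1 starts lies at chr11:98022578-98022877 (minus strand), the most upstream of 3 for Cacnb4 at chr2:52676094-52676393 (minus), and the start of Cacna1s at chr1:136052561-136052860 (plus). Cacna1d has an upstream start at chr14:30491107-30491406 (minus) and an internal one at chr14:30353437-30353736 (minus).
Cacnb1: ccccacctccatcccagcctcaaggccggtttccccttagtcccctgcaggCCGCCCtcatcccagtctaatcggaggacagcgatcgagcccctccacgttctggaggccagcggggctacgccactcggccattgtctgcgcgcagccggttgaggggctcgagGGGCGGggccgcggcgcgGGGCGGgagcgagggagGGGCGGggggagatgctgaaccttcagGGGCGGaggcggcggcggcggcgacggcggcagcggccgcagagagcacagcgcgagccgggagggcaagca
Cacnb4: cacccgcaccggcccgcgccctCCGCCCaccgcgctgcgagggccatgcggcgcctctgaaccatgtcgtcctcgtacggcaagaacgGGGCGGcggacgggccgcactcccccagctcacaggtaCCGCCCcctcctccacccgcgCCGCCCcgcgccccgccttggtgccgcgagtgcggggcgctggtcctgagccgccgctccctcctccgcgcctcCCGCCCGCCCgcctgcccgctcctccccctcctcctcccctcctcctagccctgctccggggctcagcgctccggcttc
Cacna1d, upstream start: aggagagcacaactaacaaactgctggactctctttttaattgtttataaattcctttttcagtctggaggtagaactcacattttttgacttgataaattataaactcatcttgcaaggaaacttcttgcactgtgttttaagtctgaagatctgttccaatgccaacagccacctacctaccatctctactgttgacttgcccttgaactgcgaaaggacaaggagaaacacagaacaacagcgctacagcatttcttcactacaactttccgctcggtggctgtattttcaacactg
Cacna1d, internal start: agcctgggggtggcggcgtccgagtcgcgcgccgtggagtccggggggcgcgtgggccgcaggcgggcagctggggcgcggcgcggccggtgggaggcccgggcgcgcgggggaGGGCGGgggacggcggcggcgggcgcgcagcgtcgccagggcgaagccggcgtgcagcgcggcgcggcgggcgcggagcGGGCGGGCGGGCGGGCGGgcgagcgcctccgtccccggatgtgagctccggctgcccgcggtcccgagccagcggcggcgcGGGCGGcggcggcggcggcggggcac
Cacna1s: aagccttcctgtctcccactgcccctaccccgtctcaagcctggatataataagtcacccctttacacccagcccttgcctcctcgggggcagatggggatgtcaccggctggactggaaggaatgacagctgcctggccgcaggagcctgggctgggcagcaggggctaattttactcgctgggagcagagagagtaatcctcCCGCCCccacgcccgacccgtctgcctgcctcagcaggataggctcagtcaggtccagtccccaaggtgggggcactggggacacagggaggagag

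The Cacnb1 window held 5 GC boxes and 34 CpG, and the Cacnb4 window 6 GC boxes and 40 CpG, against a median of 7 CpG over all promoters. The other Cacnb1 start had 0 GC boxes and 3 CpG, and the other 2 Cacnb4 starts had 0 GC boxes and 27 and 5 CpG. The starts of Cacna1d differed from each other: the internal one had 87.3% GC, 63 CpG and 6 GC boxes, and the upstream one had 40.3% GC, 4 CpG and no GC box but held 3 matches of TATAAA and 1 of CCAAT (these letters, on either strand, occur in 13.6% and 37.4% of promoters). Matches of TATAAA that overlap on opposite strands, as at this start, were counted separately. Cacna1s had 9 CpG and 1 GC box. Counts per gene do not tell which start of a gene was in use, and a match is a match of letters only.

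Detection separated the members into 3 levels. A member was called detected in a group where at least 3 of 5 libraries reached 1 CPM, and by this measure 4 members (Cacna1d, Cacnb1, Cacnb2 and Cacnb4) were detected in both genotypes and all 3 sets, 1 pore and 3 beta subunits. No alpha2delta member was detected in any group. Cacna1a and Cacna1c had reads in all 30 libraries but averaged at most 1.09 CPM in any group. At 0.5 CPM they joined the detected members in WT libraries named 24h and in Cacnb3-/- libraries named 0p5h and 24h, while in the other groups one of them was missing.

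**Figure D1:**
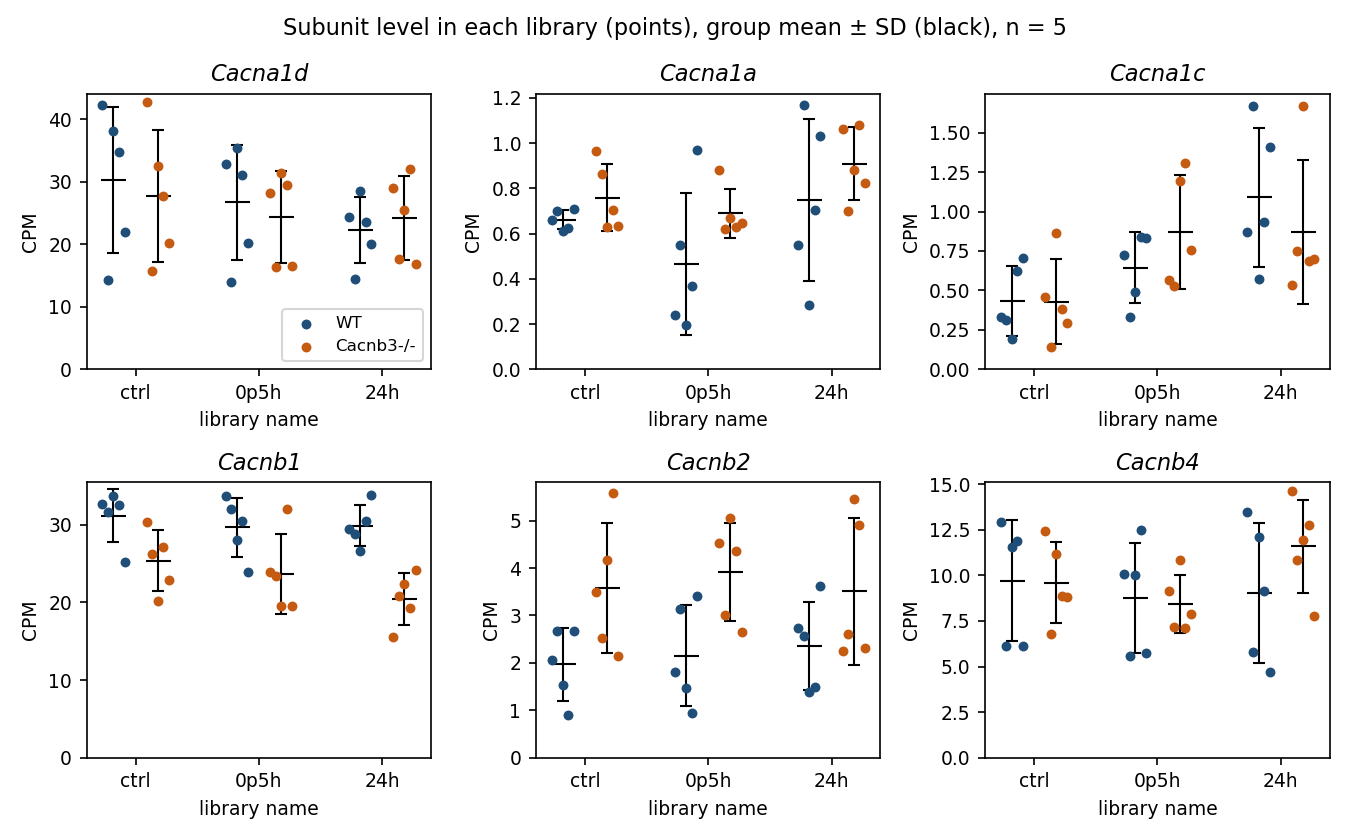
Level of the 6 members with reads in every library, in CPM (each panel has its own axis from 0), for the 3 sets of WT and Cacnb3-/- libraries. Points are libraries and bars the mean ± SD of 5. Cacna1d and Cacnb1 reach 20 to 31 CPM on average in every group, Cacnb4 8 to 12, Cacnb2 2 to 4, and Cacna1a and Cacna1c about 1 or less.

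Per kilobase of exon, which allows genes to be compared, Cacnb1 was the most abundant member at a mean of 5.89 CPM per kb over 30 libraries, followed by Cacna1d at 2.81, Cacnb4 at 1.06 and Cacnb2 at 0.220. Cacna1a (0.0618) and Cacna1c (0.0341) followed. These levels placed Cacnb1 at the 55th percentile of the genes tested, Cacna1d at the 39.7th, Cacnb4 at the 24.5th and Cacna1c at the 0.138th. Cacnb3 stood at 380 CPM per kb, the 99.1th percentile.

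Among the beta subunits, Cacnb3 therefore made up 97.2 to 98.8% of the level per kilobase in each library, whatever its label. Cacnb1 supplied 1.08 to 2.14%, Cacnb4 0.0754 to 0.864% and Cacnb2 0.0178 to 0.139%. Among the pore subunits Cacna1d made up 38.3 to 65.4% (median 54.2%), and nearly all the rest came from Cacna1b, the pore of N-type channels (30.5 to 56.5%). The 2 alpha2delta members left almost nothing of their class: Cacna2d2 supplied 97.0 to 100% of it.

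**Figure D2:**
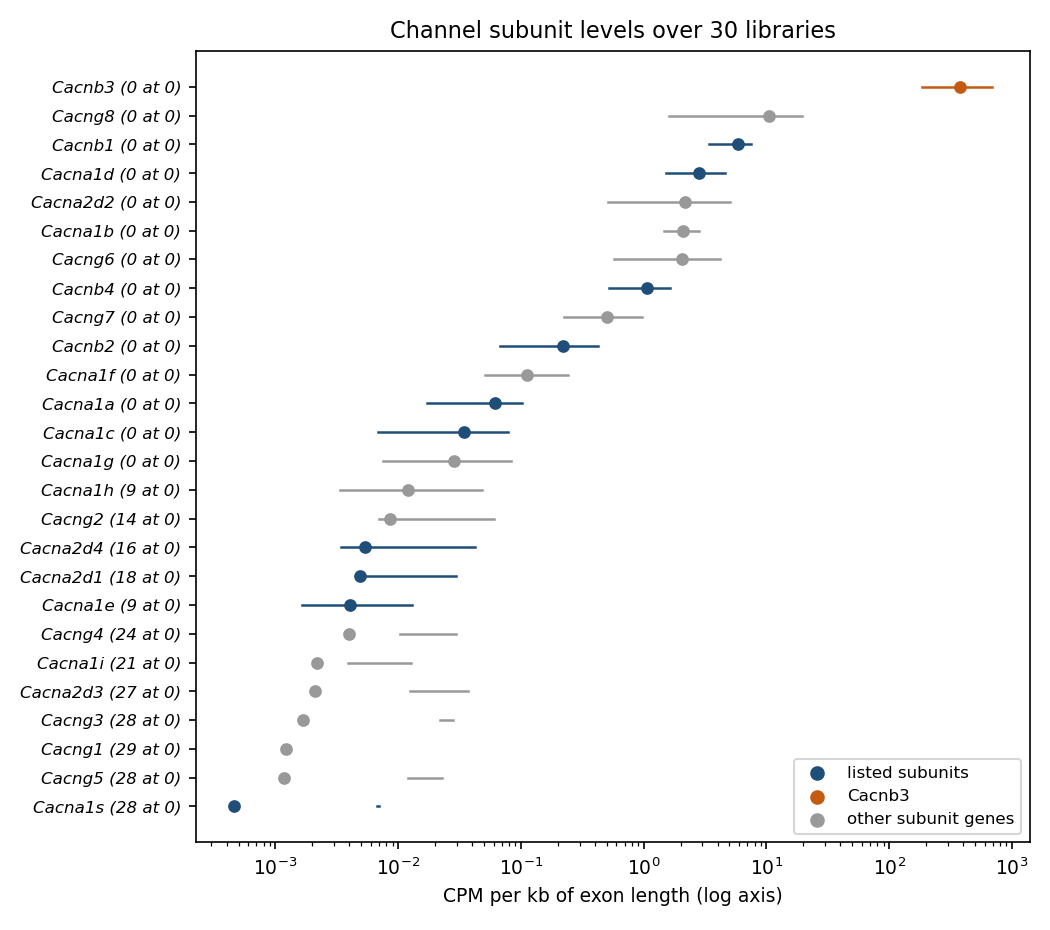
Level per kilobase of exon of the 26 channel subunit genes (log axis, CPM per kb), ordered by mean. Points are means over 30 libraries and lines the range of libraries with a read, and the number of libraries at 0 stands in the gene's label. Cacnb3 lies at 380 CPM per kb, Cacnb1 at 5.89 and Cacna1d at 2.81, while Cacna1s, Cacna1e, Cacna2d1 and Cacna2d4 lie under 0.01.

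Cacna1d, the pore subunit of L-type channels that open at comparatively low voltage and pace sinoatrial and some neuronal and endocrine cells (ENSMUSG00000015968, chr14:30039949-30491156, minus strand, mm10), did not differ detectably between genotypes. For libraries named ctrl, the WT cultures p974s846, p974s850, p974s855, p974s856 and p974s864 had 42.4, 14.3, 38.1, 34.8 and 22 CPM, for those named 0p5h 32.9, 14, 35.5, 31.1 and 20.2 CPM, and for those named 24h 24.3, 14.5, 28.6, 23.6 and 20.1 CPM. In the same order of sets, p974s843 had 42.7, 28.2 and 29 CPM, p974s851 15.7, 16.4 and 17.7 CPM, p974s852 32.5, 31.5 and 25.4 CPM, p974s853 27.7, 29.5 and 32.1 CPM, and p974s865 20.2, 16.5 and 16.9 CPM, all Cacnb3-/-. Within each genotype the cultures ranged more widely than the genotype means: p974s850 and p974s864 among WT and p974s851 and p974s865 among Cacnb3-/- were the lowest of their genotype in all 3 sets, and the genotypes overlapped throughout.

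For Cacna1d the log2 change of Cacnb3-/- against WT was -0.10 (SE 0.32, interval -0.79 to 0.59) in libraries named ctrl, -0.12 (SE 0.27, interval -0.71 to 0.48) in those named 0p5h and 0.13 (SE 0.22, interval -0.36 to 0.62) in those named 24h. All intervals are 95% intervals of the edgeR fit. Adjusted p was 0.889, 0.855 and 0.693.

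Cacna1a, the pore of P/Q-type channels at nerve terminals (ENSMUSG00000034656, chr8:84388440-84640246, plus strand), was read 4 to 22 times per library. In WT, cultures in the same order had 0.662, 0.698, 0.614, 0.623 and 0.707 CPM at ctrl, 0.241, 0.550, 0.196, 0.368 and 0.970 CPM at 0p5h, and 0.548, 1.17, 0.287, 0.702 and 1.03 CPM at 24h. In Cacnb3-/- they had 0.965, 0.863, 0.629, 0.705 and 0.634 CPM, then 0.882, 0.619, 0.670, 0.629 and 0.647 CPM, then 1.06, 0.701, 0.880, 1.08 and 0.824 CPM. Genotypes overlapped in each set, and the log2 change was 0.23 (SE 0.23), 0.58 (SE 0.41) and 0.28 (SE 0.37), with adjusted p = 0.614, 0.483 and 0.604. From the set named 0p5h to that named 24h Cacna1a was higher in 5 of 5 WT and 5 of 5 Cacnb3-/- cultures. The log2 change was 0.68 and 0.38, which did not pass the edgeR test without the pairing of cultures (adjusted p = 0.678 and 0.448). Of 13 alternative settings in each genotype, which include the culture as a replicate block, 0 gave an adjusted p under 0.05.

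Cacna1c, the pore of the L-type channels of heart and smooth muscle (ENSMUSG00000051331, chr6:118587240-119196418, minus strand), had the largest log2 change between sets of the 6 members tested. In WT, cultures in the same order had 0.331, 0.310, 0.192, 0.623 and 0.707 CPM at ctrl, 0.724, 0.330, 0.489, 0.841 and 0.831 CPM at 0p5h, and 0.868, 1.67, 0.573, 0.937 and 1.41 CPM at 24h. In Cacnb3-/- the values were 0.459, 0.144, 0.865, 0.385 and 0.296 CPM, then 0.567, 0.530, 1.19, 1.31 and 0.755 CPM, then 0.532, 0.751, 1.67, 0.687 and 0.701 CPM. Each of the 10 cultures was higher in the libraries named 0p5h and in those named 24h than in its own library named ctrl, on 2 to 30 reads per library. The 2 comparisons share the ctrl library (5 to 16 reads in WT, 2 to 11 in Cacnb3-/-), so they are not independent. How many of all genes show this pattern was not computed.

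In WT, the log2 change of Cacna1c from the set named ctrl to that named 24h was 1.35 (SE 0.41, interval 0.46 to 2.24), with adjusted p = 0.396 in the edgeR fit without the pairing of cultures. With the culture as a replicate block the change was 1.37 with adjusted p = 0.0264, and Cacna1c was then the 1 member called, where 0.926% of all 13176 genes were called. From ctrl to 0p5h the change was 0.59 (SE 0.40). In Cacnb3-/- libraries Cacna1c fell under the filter on low counts in both comparisons with ctrl, and without that filter it changed by 1.02 to the set named 0p5h and by 1.04 to that named 24h, with adjusted p = 0.843 and 0.568. The genotypes' changes from ctrl to 24h differed by -0.31 (SE 0.63, interval -1.62 to 1.01, adjusted p = 0.898), an interval wide enough for either genotype to have changed more. Between genotypes Cacna1c was 0.44 (SE 0.36) higher on the log2 scale in Cacnb3-/- libraries named 0p5h and 0.31 lower (log2 change -0.31, SE 0.38) in those named 24h, with the groups overlapping.

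**Figure D3:**
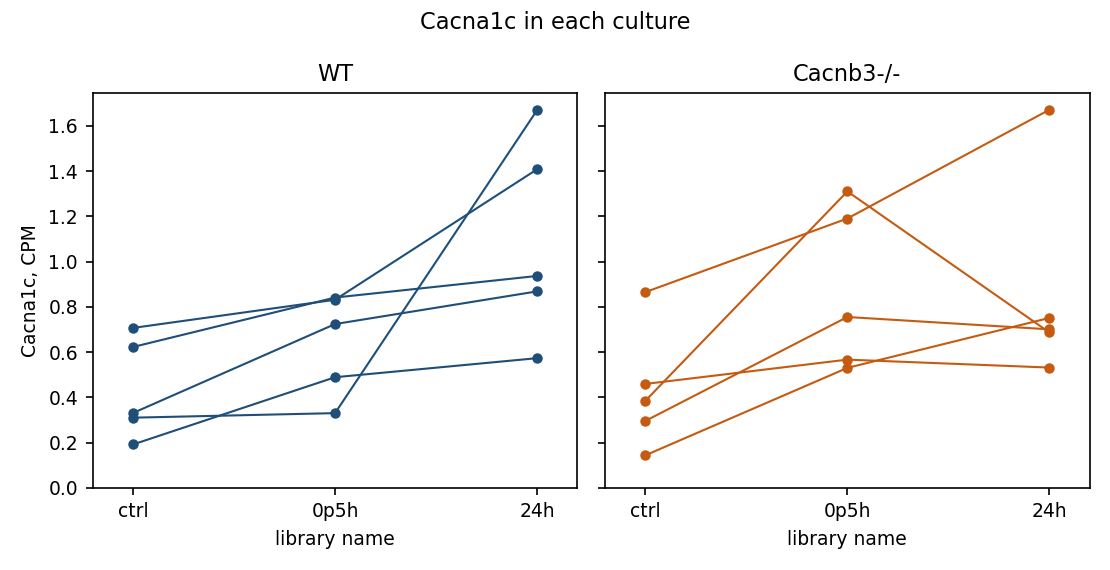
Cacna1c level (CPM) in the 3 sets, with 1 line for each of the 5 WT and 5 Cacnb3-/- cultures. All 10 lines are higher at 0p5h and at 24h than at ctrl, and the groups of the genotypes overlap in each set.

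The other pore members were close to absent. Cacna1e, the pore of R-type channels (ENSMUSG00000004110, chr1:154390731-154884501, minus strand), had 56 reads in all, at most 7 in a library, and none in 9 of 30 libraries. Cacna1s, the pore that serves as voltage sensor in skeletal muscle (ENSMUSG00000026407, chr1:136052750-136119822, plus strand), had 2 reads in all, 1 in a WT library named 24h and 1 in a Cacnb3-/- library named 0p5h. Neither passed the filter on low counts in any comparison.

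Among the alpha2delta members, Cacna2d1 (ENSMUSG00000040118, chr5:15934691-16374511, plus strand), the widely expressed form to which gabapentin binds, had 19 reads in all and at most 3 in a library. In the 5 Cacnb3-/- libraries named 24h it had none, and in the 5 WT ones it had 2, 1, 0, 0 and 2, a difference that the depth cannot show. Cacna2d4, the form of retinal photoreceptors (ENSMUSG00000041460, chr6:119236526-119352407, plus strand), had 24 reads in all and at most 4 in a library, with none in 16 libraries. The alpha2delta subunit with clear reads was Cacna2d2, which is not among the 10 members, at group means of 15.7 to 22 CPM.

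Of the beta members, Cacnb1 had a lower mean in the libraries labelled Cacnb3-/- in each set, without overlap at 24h. Cacnb1 (ENSMUSG00000020882, chr11:98001508-98023034, minus strand) encodes the beta subunit of skeletal muscle channels, which is also made in other tissues. WT cultures had 32.7, 31.7, 33.7, 32.5 and 25.2 CPM at ctrl, 33.7, 32.1, 28.1, 30.5 and 23.9 CPM at 0p5h, and 29.4, 28.9, 26.6, 30.5 and 33.8 CPM at 24h. Cacnb3-/- cultures had 30.3, 26.3, 20.2, 27.1 and 22.9 CPM, then 23.9, 23.4, 19.5, 32 and 19.6 CPM, then 15.6, 20.9, 22.4, 19.2 and 24.2 CPM. The genotypes overlapped in the sets named ctrl and 0p5h, while at 24h every Cacnb3-/- library was under every WT library.

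Of 13755 genes, 1.23%, 1.1% and 3.57% were lower without overlap in Cacnb3-/- libraries named ctrl, 0p5h and 24h, and 0.676%, 0.916% and 2.58% were higher. Cacnb1 was the 1 member among them. Its log2 change at 24h was -0.53 (SE 0.14, interval -0.83 to -0.23) with adjusted p = 0.0515, and -0.27 (SE 0.13) and -0.31 (SE 0.15) in the sets named ctrl and 0p5h, with adjusted p = 0.311 and 0.338. DESeq2 gave adjusted p = 0.0081 for the set named 24h, at less than a 2-fold change. In that set 4 of 18 alternative settings gave Cacnb1 an adjusted p under 0.05, with log2 changes of -0.59 to -0.03 over all 18. In the sums per culture 1 of 16 did, with log2 changes of -0.41 to -0.12. At ctrl and at 0p5h 0 of 18 did. Cacnb1 transcripts have 59.7% GC, and at 24h the changes of all genes ran with GC content (r = -0.58 across 12589 genes, which are not independent). Once that trend was removed, the change of Cacnb1 was -0.03 with adjusted p = 0.893. In bulk RNA fewer cells of a type and less RNA per cell cannot be told apart.

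Cacnb2, the beta subunit best known from the heart (ENSMUSG00000057914, chr2:14603088-14987908, plus strand), stood higher on average in the Cacnb3-/- libraries of all 3 sets but overlapped with WT in each. WT cultures had 2.06, 2.67, 1.53, 0.895 and 2.68 CPM at ctrl, 1.81, 3.14, 1.47, 0.946 and 3.42 CPM at 0p5h, and 2.74, 2.56, 1.39, 1.48 and 3.61 CPM at 24h. Cacnb3-/- cultures had 3.49, 2.52, 4.17, 5.58 and 2.15 CPM, then 4.53, 3, 5.06, 4.35 and 2.64 CPM, then 2.26, 2.60, 5.45, 4.91 and 2.31 CPM. Cultures p974s851 and p974s865 lay within the WT range in every set, and p974s852 and p974s853 lay above every WT culture in every set.

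The log2 change of Cacnb2 was 0.88 (SE 0.35, interval 0.13 to 1.64), 0.88 (SE 0.35, interval 0.12 to 1.63) and 0.57 (SE 0.35, interval -0.19 to 1.33) in the sets named ctrl, 0p5h and 24h. None passed the test after adjustment over all genes (adjusted p = 0.264, 0.274 and 0.242). In the sums over a culture's 3 libraries, the change was 0.79 (SE 0.32, interval 0.08 to 1.5, adjusted p = 0.18). With the GC trend removed it was 0.79, 0.80 and 0.28 in the 3 sets. Cacnb2 supplied at most 0.139% of the beta subunit level per kilobase. That total is mostly Cacnb3 reads whatever the label, which cannot show a missing exon. In libraries named ctrl, Cacnb2 averaged 0.271 CPM per kb in Cacnb3-/- and 0.149 in WT. The sum of Cacnb1, Cacnb2 and Cacnb4 there was 6.94 and 8.11 CPM per kb.

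Cacnb4, the beta subunit best known from the brain (ENSMUSG00000017412, chr2:52428320-52676831, minus strand), did not differ detectably between genotypes. WT cultures had 12.9, 6.13, 11.5, 11.9 and 6.11 CPM at ctrl, 10.1, 5.56, 10.04, 12.5 and 5.73 CPM at 0p5h, and 13.5, 5.79, 12.1, 9.13 and 4.69 CPM at 24h. Cacnb3-/- cultures had 12.4, 6.76, 11.2, 8.85 and 8.79 CPM, then 9.13, 7.16, 10.9, 7.13 and 7.88 CPM, then 14.6, 10.8, 12, 12.8 and 7.79 CPM. WT cultures p974s850 and p974s864, low in Cacna1d, were also the lowest in Cacnb4 in all 3 sets. Their libraries were all on sequencing lane 001 and held 3.10 to 5.61% mitochondrial reads, against 0.71 to 2.55% in the other WT cultures. Of the Cacnb3-/- cultures low in Cacna1d, p974s851 was also all on lane 001 and p974s865 all on lane 002. The part of lane and mitochondrial share in this pattern was not tested.

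The log2 change of Cacnb4 between genotypes was 0.01 (SE 0.25), -0.04 (SE 0.24) and 0.36 (SE 0.29, interval -0.27 to 0.99) in the sets named ctrl, 0p5h and 24h. From 0p5h to 24h it changed by 0.47 (SE 0.20, adjusted p = 0.265) in Cacnb3-/- and by 0.05 (SE 0.32) in WT libraries. With the culture as a replicate block the former had adjusted p = 0.040 at 0.46, under the 2-fold minimum, and with the GC trend removed the unpaired change was 0.14 with adjusted p = 0.645. Of the 8963 exon bases of Cacnb4, 16% are shared with A430018G15Rik on the opposite strand (mean 11.9 reads). Counting ignored strand, and reads that overlap several genes were dropped.

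Counting members together, 0 of the 5 tested in libraries named ctrl, 0 of 6 in those named 0p5h, 0 of 6 in those named 24h and 0 of 6 in the sums per culture were called between genotypes at adjusted p under 0.05 and at least 2-fold. The background was the same, with 0% of 13022, 12806, 12706 and 14833 genes called by edgeR. At an unadjusted p under 0.05 there was 1 member in each set, Cacnb2 higher at ctrl and 0p5h and Cacnb1 lower at 24h, where 16.6%, 16.4% and 38.4% of all genes passed. In the sums per culture both passed, with 23.3% of all genes. The median log2 change of the members tested was 0.01, 0.20 and 0.20 in the 3 sets, beside 0.03, 0.02 and 0.01 over all genes.

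**Figure D4:**
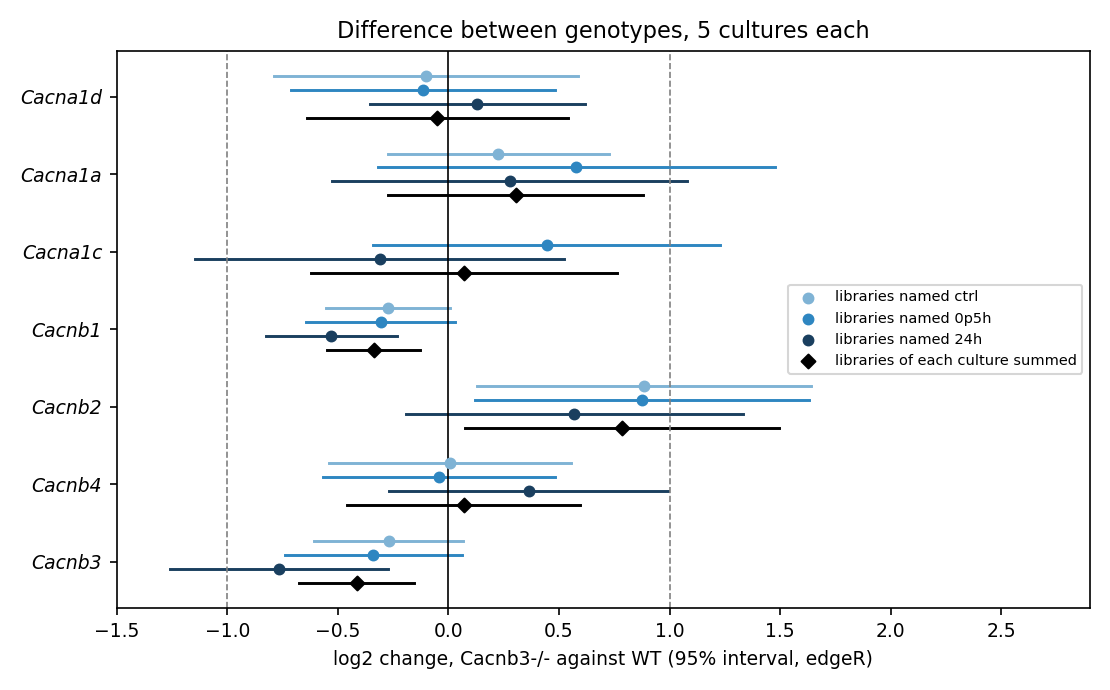
Log2 change of Cacnb3-/- against WT libraries for 6 members and Cacnb3, with 95% intervals from edgeR, in each set and in the sums per culture (5 cultures a genotype, dashed lines at 2-fold). Cacnb1 lies below 0 and Cacnb2 above 0 in every set, and Cacna1d and Cacnb4 lie on both sides of 0. Cacna1c was not tested in libraries named ctrl.

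The summed level of the 3 beta members had a lower mean in Cacnb3-/- than in WT libraries of each set. It was 8.11 ± 1.01, 7.69 ± 0.960 and 7.78 ± 0.488 CPM per kb (SD, n = 5) in WT libraries named ctrl, 0p5h and 24h, and 6.94 ± 0.948, 6.47 ± 1.07 and 6.07 ± 0.546 CPM per kb in Cacnb3-/- ones. At 24h the ranges were 7.22 to 8.27 in WT and 5.24 to 6.70 in Cacnb3-/-. Most of this sum is Cacnb1, and the sum was not computed with the GC trend removed. The summed pore level was 5.96 ± 1.44 CPM per kb in WT and 5.25 ± 1.2 in Cacnb3-/- libraries named ctrl, and 4.77 ± 0.763 and 4.70 ± 0.610 in those named 24h.

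Between sets 0 members were called in either genotype in the unpaired fits. The share of all genes called was 0.176% from ctrl to 0p5h, 0.0152% from ctrl to 24h and 0.639% from 0p5h to 24h in WT libraries, and 0.29%, 0% and 0.66% in Cacnb3-/- libraries. At an unadjusted p under 0.05 there were Cacna1c in WT from ctrl to 24h and Cacnb4 in Cacnb3-/- from 0p5h to 24h, where in the same order 4.54%, 8.39% and 11.2% of all genes passed in WT and 3.99%, 10.8% and 17.5% in Cacnb3-/-. Cacna1d was lower at 0p5h than at ctrl in 5 of 5 WT cultures, with a log2 change of -0.17 (SE 0.32), and -0.15 with adjusted p = 0.134 under the replicate block. In the test of the difference between the genotypes' changes, 0 of 6 members were called from ctrl to 0p5h (adjusted p = 1 for each) and 0 of 6 from ctrl to 24h (adjusted p = 0.753 to 0.985). Over all genes 0% of 13465 and of 13536 were called there, and 0.223% and 4.86% passed an unadjusted p under 0.05, with 0 members among them.

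The levels of Cacnb4 and Cacna1d ran together. Across the 30 libraries their log2 CPM correlated at r = 0.73, across the 10 culture means at r = 0.84, and within the 6 groups at r = 0.80. The 3 libraries of a culture share its number, so the 30 points are not independent. The members did not all run together: Cacnb4 and Cacnb1 had r = -0.24 and Cacnb2 and Cacna1d r = -0.14. Cacnb1 instead ran with Cacnb3 (r = 0.74 over 30 libraries, 0.64 within groups). The transcripts of Cacnb1 and Cacnb3 have 59.7 and 62.0% GC, against 40.5% in Cacnb4 and 49.6% in Cacna1d. Correlations were not recomputed with the GC trend removed, and the part of GC content in them was not tested.

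**Figure D5:**
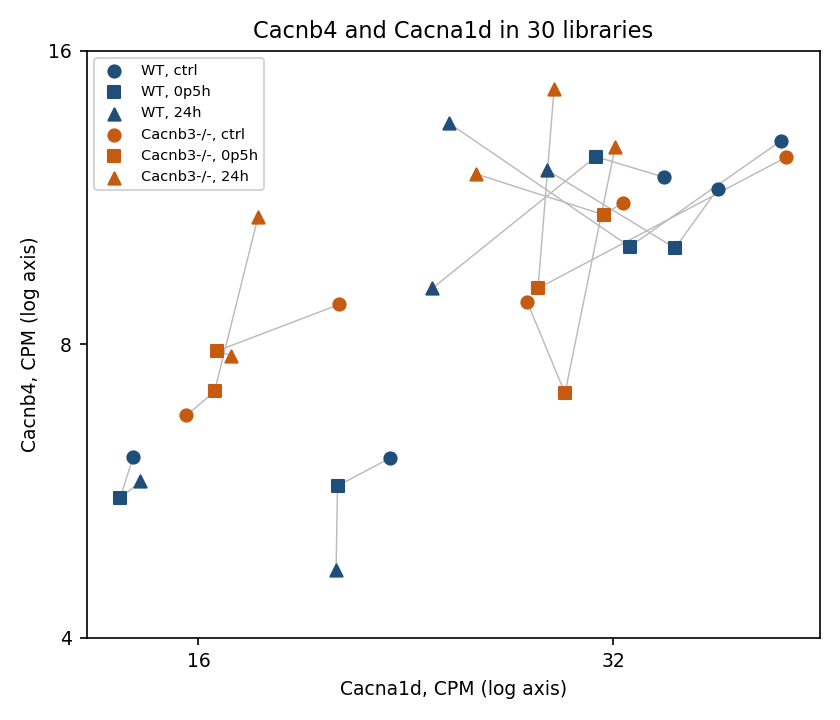
Cacnb4 (vertical) against Cacna1d level (horizontal) in 30 libraries, both in CPM on log axes, with lines that join the 3 libraries of a culture. The WT cultures p974s850 and p974s864 stay at 14 to 22 CPM of Cacna1d and 4.69 to 6.13 CPM of Cacnb4.

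The genes whose log2 CPM was most like that of Cacna1d over the 30 libraries were Hivep2 (r = 0.86), Fyn (0.85) and Glis3 (0.84). For Cacnb4 they were Nadk2 (0.86), Acadl (0.82) and Rnf217 (0.82), for Cacnb2 S100a10 (0.90), Dtymk (0.89) and Jtb (0.88), and for Cacnb1 Zfp598 (0.87), Lipe (0.87) and Cacng8 (0.87). Cacng8 encodes a gamma subunit of the same family.

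Several members lie near other genes or overlap them, and the part of this in their values was not tested. Reads that overlap several genes were dropped in counting. Rpl19 starts 3675 bases before Cacnb1 on the opposite strand, with a mean of 29.6 reads, and Gm11629 shares 80 of the 4529 exon bases of Cacnb1. Arl5a, on the same strand as Cacnb4, begins 3418 bases beyond its end with a mean of 7731 reads. Chdh shares 5.6% of the exon bases of Cacna1d, whose gene body also overlaps the abundant Dcp1a on the opposite strand (mean 1276 reads). Gm37759, on the opposite strand, shares 19.98% of the exon bases of Cacna1s and had more reads than Cacna1s (mean 14.2). Gm16183 shares 3.81% of those of Cacna1a, 3 genes together share 7.32% of those of Cacnb2, Dcp1b overlaps the gene body of Cacna1c, and Adipor2 (mean 2026 reads) lies 742 bases beyond Cacna2d4.

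Of the 15 other genes of the family, Cacna1b, Cacna2d2, Cacng6 and Cacng8 were detected in all 6 groups, Cacng7 in 3 and Cacna1f in 1. Cacna1g and Cacna1h averaged 0.1 CPM or more in at least 1 group, and the other 7 did not. None was called between genotypes in the edgeR fits of each set alone or of the sums per culture, with all cultures and the filter. Cacng8 had the lowest ratio of those tested, with a log2 change of -1.52 (SE 0.31, adjusted p = 0.0515) at 24h, and -0.98 with the GC trend removed. Cacng8 was called at 24h by DESeq2, without the filter, with all 30 libraries in 1 fit and without culture p974s864 or p974s865, at ctrl without p974s864, and in the sums per culture by DESeq2 and without p974s864 or p974s865. Of 22 genes known to regulate the channels, 18 were tested in each set and 0 were called between genotypes. At 24h Akap12 was called with all 30 libraries in 1 fit and Akap7 without p974s865. Ahnak, a large scaffold protein that binds beta subunits, had group means of 249 to 385 CPM, and Tspan13, a tetraspanin, 175 to 256 CPM.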

How the data were processed

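Poly(A) RNA of 10 cultures was sequenced in 30 libraries, and the authors deposited one table of raw read counts per gene. The file header names featureCounts 1.5.1 with an Ensembl annotation of GRCm38, on read 1 alone, and the submitters' processing notes name STAR 2.4, DESeq2 and mm10. Counting ignored strand and dropped reads that overlap several genes. Coordinates and exon lengths are those of the count table (mm10). Symbols and transcript GC content came from a GENCODE release on GRCm39, joined by gene ID, with 38981 of 43629 IDs matched. RefSeq promoters of GRCm38.p6, a patch release of the assembly behind mm10, supplied sequences.

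Counts were tested with edgeR 4.0.16 (TMM, filterByExpr, quasi-likelihood test) over all genes in R 4.3.3, with Benjamini-Hochberg adjustment over the genes tested. A call needs an adjusted p below 0.05 together with a 2-fold change. Levels are CPM with TMM over all 30 libraries, divided by exon length in kb where genes are compared. Intervals are 95%. Depth ranged from 8237393 to 32164225 reads per library. The limit of 3 counts covers counting error only.

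Members, gene lists, marker lists and tests were chosen with earlier results of these data known. All 10 members and Cacnb3 are named. Other family genes are named at 0.1 CPM or more in a group or when called, regulators when called or as up to 4 of the highest (1 result is not reported here), neighbours within 5 kb, and the 3 genes most like each member that averaged 1 CPM. Marker lists whose values are not given (mast cells, T cells, B cells, plasmacytoid dendritic cells, stroma and endothelium) were computed over the same libraries.

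The labels do not state that a culture number is 1 mouse, so p-values measure the spread between these cultures. The number is shared by 3 library names. Deviations from group means correlated above 0.1 for all 5 same-numbered pairs in 5 of 6 comparisons of sets, and for 4 of 5 (lowest 0.0742) between ctrl and 24h in Cacnb3-/-. The fit with culture as a replicate block is given for the former. The latter comparison, and the genotype difference from ctrl to 24h that contains it, are included in the counts of genes and members called under the block. Alternatives were DESeq2 1.42.0 as a test and as size factors, no filter, no fold minimum, a GC trend removed by lowess with span 0.3, all 30 libraries in 1 fit, the block and leaving out each culture. limma-voom (limma 3.58.1), sequencing lane as a covariate and leaving out mitochondrial genes were added after seeing the data.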

Additional observations from a re-analysis of the deposited data

Results flagged for a closer look

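A single library stood apart from the other 4 of its group, by Dixon's 95% criterion, in 3 of 36 member-by-group sets, and chance alone marks about 1 in 20. Cacnb1 was at 25.2 CPM in the WT library named ctrl of culture p974s864, where the others had 31.7 to 33.7 CPM. Cacna1a was at 0.882 CPM in the Cacnb3-/- library named 0p5h of p974s843, where the others had 0.619 to 0.670 CPM. Cacna1c was at 1.67 CPM in the Cacnb3-/- library named 24h of p974s852, where the others had 0.532 to 0.751 CPM.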

How the results depend on the processing

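The count of members called stayed at its value in 195 of 196 recomputations. The exception was the set named 24h against ctrl in WT, where culture as a replicate block gave 1 (Cacna1c) in place of 0. Leaving out a culture gave 0 members called in every comparison. Of 427 log2 changes recomputed, 32 turned sign, all of changes between genotypes that were not called. Cacnb4 in libraries named ctrl became -0.0068 with DESeq2, -0.029 with no filter, -0.13 with the GC trend removed, -0.0059 without mitochondrial genes, -0.20 with lane as a covariate and -0.018 with all 30 libraries in 1 fit. With the GC trend removed it became -0.19 at 24h and -0.16 in the sums per culture. Cacna1d at 24h became -0.13 with lane as a covariate. Leaving out each culture gave Cacnb4 -0.12 to 0.13 at ctrl, -0.18 to 0.11 at 0p5h and -0.071 to 0.20 in the sums, Cacna1d -0.31 to 0.045, -0.28 to 0.0081 and -0.21 to 0.075, and Cacna1c -0.19 to 0.23 in the sums. The cause was not tested. Over all genes, DESeq2 called 146, 84, 606 and 250 genes between genotypes at ctrl, 0p5h, 24h and in the sums, where edgeR called 0. No filter gave 376 and the 30-library fit 615 at 24h. Leaving out a culture gave 0 to 249, 0, 0 to 1129 and 0 to 380. Between sets (0p5h and 24h against ctrl, 24h against 0p5h) DESeq2 called 51, 30 and 148 in WT and 56, 48 and 203 in Cacnb3-/-, and leaving out a culture gave 3 to 13, 0 to 2 and 39 to 72 in WT and 16 to 26, 0 to 3 and 20 to 66 in Cacnb3-/-. Under the replicate block, 76, 122 and 228 genes were called in WT, in place of 23, 2 and 82, and 82, 138 and 367 in Cacnb3-/-, in place of 37, 0 and 84, and 16 in place of 0 in the genotype difference from ctrl to 24h. Without a fold minimum WT gave 38 from ctrl to 0p5h and 153 from 0p5h to 24h, in place of 23 and 82. The block changed no other member call. Detection of members at 1 CPM in all 5 libraries instead of 3 lost Cacnb2 in WT libraries named ctrl and 0p5h. Depth limits Cacna1e, Cacna1s, Cacna2d1 and Cacna2d4, which no filtered fit tested.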

Other observations

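Among the channel regulators, Gem, a small GTPase that binds beta subunits and lowers channel activity, changed between sets. It stood at 30.0 ± 10.4, 58.9 ± 18.8 and 24.8 ± 4.97 CPM (SD, n = 5) in WT libraries named ctrl, 0p5h and 24h, and at 25.9 ± 13.6, 56.1 ± 22 and 36 ± 15.2 CPM in Cacnb3-/- ones. From 0p5h to 24h the log2 change in WT was -1.24 (SE 0.22, edgeR adjusted p = 0.0225). Gem was the 1 regulator of 18 tested that was called in the unpaired fits of 2 groups. In this WT comparison 0.639% of all 12830 genes were called. The call was lost without p974s846, p974s855, p974s856 or p974s864 (adjusted p = 0.0922, 0.103, 0.146 and 0.0538), kept without p974s850 (0.0338), and lost with all 30 libraries in 1 fit (0.0717). In Cacnb3-/- libraries the change was -0.63 (SE 0.33, adjusted p = 0.320). From ctrl to 0p5h it was 0.98 (adjusted p = 0.418) in WT and 1.10 (adjusted p = 0.673) in Cacnb3-/-, and with culture as a replicate block 0.99 and 1.16 (adjusted p = 1.67e-05 and 0.000672). Between these sets Gem was called under the block in Cacnb3-/- and not in WT, where the change was under 2-fold. The numbers of all genes called under the block are given in the section on processing above. The difference between the genotypes' changes from 0p5h to 24h was not tested, and that from ctrl to 24h was 0.74 (SE 0.47, adjusted p = 0.753).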
